A study of Mus musculus with 12 samples.

Results

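The T-cell receptors (TCRs) of CD8+ T cells from tumors were compared between mice given BF10 and mice given αCSF1R. BF10 is an antibody against mouse CSF-1R with IL-10 fused to its heavy chain, and αCSF1R is the antibody part without IL-10, so the pair differs in the cytokine. These were 2 of the 12 libraries of the series, chosen by their labels, and the tumor libraries of the control IgG and IL-10-Fc groups are given beside them for reference. All groups were wild-type C57BL/6J mice bearing Q1-2 oral cancer tumors, dosed at 30 mg/kg for 3 doses at an interval of 3 days. BF10 is the heavier protein, so if these doses were equal by mass, fewer antibody molecules were given with BF10. Cells were selected with CD8 microbeads, each library was a mixture from 3 mice, and each group is therefore 1 sample. No spread between mice can be given, no test was run, and 95% intervals (exact binomial for shares) cover counting error only. CD8 transcripts are not among the measured chains, so the bead selection could not be checked against CD8 itself.

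A TCR chain is assembled in each developing T cell by joining a V gene to a J gene, with a D gene between them in the β and δ chains, while bases are trimmed and added at the joints. The joint encodes the third complementarity-determining region (CDR3), the stretch that lies over the antigen peptide, and T cells of 1 clone carry the same CDR3 nucleotide sequence. Most CD8+ T cells use an α and a β chain (read here through their constant regions as TRAC and TRBC), and γδ T cells use TRGC and TRDC chains. A CDR3 that takes few added bases can be made many times over, in different cells and animals, and by several nucleotide sequences.

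The most abundant β-chain CDR3s of the 2 libraries are shown first because a few of them hold much of the αCSF1R library. Each is given by its amino acids and by its leading nucleotide sequence, 5′ to 3′, from the conserved cysteine to the conserved phenylalanine. Small letters mark bases that match germline V without a break from the start, or germline J without a break from the end. Capitals mark the bases between these stretches, which hold the D segment and added bases. A base past the first mismatch is a capital even where it matches germline. The 5 leading CDR3s of the αCSF1R library were:
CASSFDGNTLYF (Trbv15, Trbj1-3): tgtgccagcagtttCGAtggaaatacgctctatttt
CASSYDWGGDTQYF (Trbv16, Trbj2-5): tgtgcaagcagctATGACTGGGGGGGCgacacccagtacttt
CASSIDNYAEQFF (Trbv19, Trbj2-1): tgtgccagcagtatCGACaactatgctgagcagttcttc
11-residue chain (Trbv13-1, Trbj1-2): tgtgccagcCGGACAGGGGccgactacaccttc
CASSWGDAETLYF (Trbv19, Trbj2-3): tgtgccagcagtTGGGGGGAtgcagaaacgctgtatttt

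Those of the BF10 library were:
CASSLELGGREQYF (Trbv16, Trbj2-7): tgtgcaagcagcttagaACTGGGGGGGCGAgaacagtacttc
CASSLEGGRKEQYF (Trbv3, Trbj2-7): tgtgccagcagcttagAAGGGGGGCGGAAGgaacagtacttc
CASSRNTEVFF (Trbv17, Trbj1-1): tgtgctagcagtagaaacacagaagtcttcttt
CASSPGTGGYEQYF (leading version Trbv29, Trbj2-7): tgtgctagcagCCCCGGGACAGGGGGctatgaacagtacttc
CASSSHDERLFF (Trbv29, Trbj1-4): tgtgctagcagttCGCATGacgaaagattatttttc

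Abundance is given as unique molecular identifiers (UMIs, tags that mark single cDNA molecules) supported by at least 3 reads. The BF10 library held 175080 TRBC and 117661 TRAC UMIs, and the αCSF1R library held 32784 and 23650. TRBC UMIs were thus 5.34-fold and TRAC UMIs 4.98-fold more numerous in BF10. A chain with no UMI could still make up 0.00171% of BF10 TRBC UMIs and 0.00915% of αCSF1R TRBC UMIs, the limit that a count of 0 allows (3 UMIs). Of the TRBC UMIs, 41.4% in BF10 and 69.6% in αCSF1R had 7 reads or more, so UMIs of the BF10 library were read less often. Fewer cells of a clone and less receptor RNA per cell cannot be told apart in such libraries.

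The BF10 library held many CDR3s at low shares, and the αCSF1R library few at high shares. At an equal total of 32784 UMIs, 24485 different TRBC CDR3 amino acid sequences were expected from the BF10 library, against 2298 in αCSF1R, a ratio of 10.7. The IL-10-Fc and control IgG libraries gave 21179 and 6178 at the same total. For TRAC at 23650 UMIs the numbers were 14216 in BF10, 2074 in αCSF1R, 12639 in IL-10-Fc and 5343 in control IgG, with a BF10 to αCSF1R ratio of 6.85. Both chains thus gave the same order of the 4 tumor libraries, with BF10 highest and αCSF1R lowest. The number of cells behind each library is not known, and equal UMI totals do not make it equal.

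**Figure D1:**
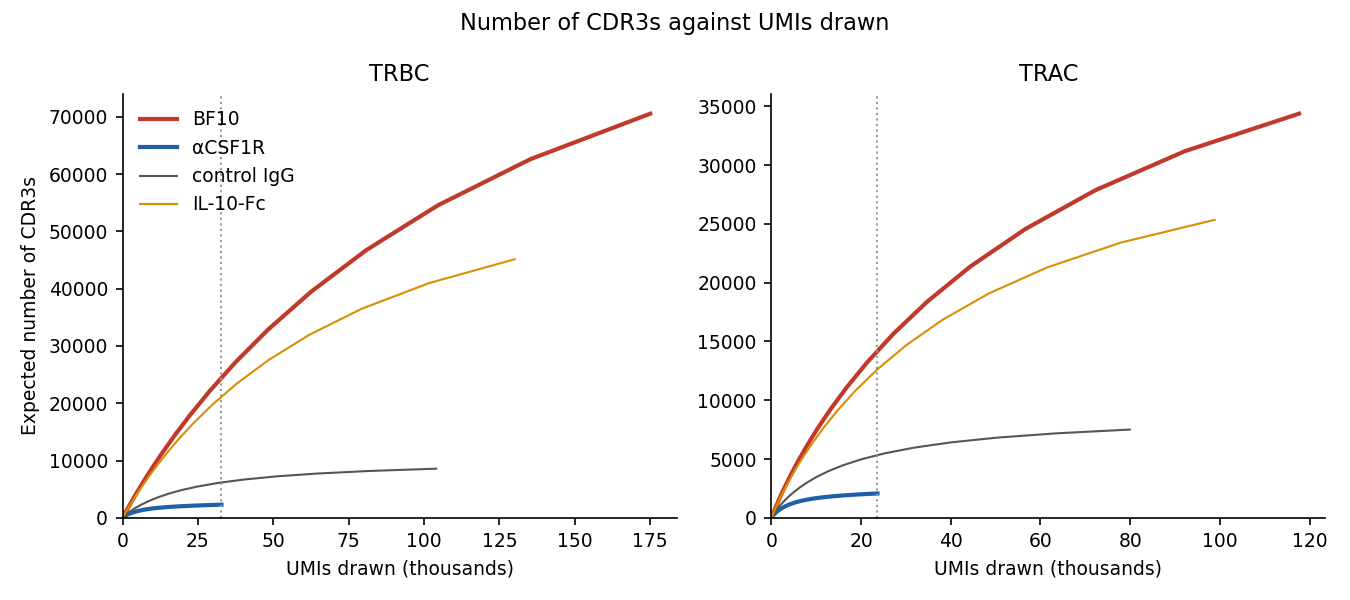
Expected number of CDR3 amino acid sequences (y axis) when a given number of UMIs (x axis) is drawn from each tumor library, for TRBC (left) and TRAC (right). Each line ends at the library's own total, and the dotted line marks the αCSF1R total; there the TRBC lines stand at 24485 for BF10 and 2298 for αCSF1R, and the BF10 line is still climbing at its end.

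The 10 leading CDR3s made up 34.0% of TRBC UMIs in αCSF1R and 1.03% in BF10, with 31.9% in control IgG and 3.88% in IL-10-Fc. For TRAC these shares were 34.3%, 2.08%, 22.3% and 4.66% in the same order. In αCSF1R, 26 TRBC CDR3s held 50% of the UMIs, and in BF10 it took 14939. A TRBC CDR3 was represented by 14.3 UMIs on average in αCSF1R and by 2.48 in BF10, and CDR3s with a single UMI made up 22.6% and 42.5% of those listed.

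The 5 leading αCSF1R β chains were absent from BF10 or held a few UMIs there. Of the 10 leading αCSF1R TRBC CDR3s 4 were listed in BF10, against 30.3% of all αCSF1R TRBC CDR3s. Among these 4 was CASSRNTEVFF, at rank 10 in αCSF1R, with 254 UMIs in BF10. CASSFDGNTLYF had 1644 UMIs in αCSF1R, 5.01% of TRBC (95% interval 4.78 to 5.26), and none in BF10, control IgG or IL-10-Fc tumors. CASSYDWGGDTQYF, with 1508 UMIs (4.6%), and the 11-residue Trbv13-1 chain, with 1158 UMIs (3.53%), were likewise listed in the αCSF1R tumor library and in none of the other 3 tumor libraries. For each of these the limit in BF10 was 0.00171% of TRBC UMIs. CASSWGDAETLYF had 1112 UMIs (3.39%) in αCSF1R and 4 in BF10, where it was built from Trbv3 instead of Trbv19 and by another nucleotide sequence.

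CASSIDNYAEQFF had 1310 UMIs (4.00%) in αCSF1R, 5 in BF10 and 4448 (4.28%) in control IgG, with none in IL-10-Fc. The leading nucleotide sequences of this CDR3 differed between the 2 libraries in which it was abundant:
αCSF1R, 1303 UMIs: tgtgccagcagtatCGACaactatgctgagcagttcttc
control IgG, 4434 UMIs: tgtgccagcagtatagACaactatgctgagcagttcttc
The 5 UMIs in BF10 were 4 of the first version and 1 of the second. The same β-chain CDR3 was thus among the leaders of both pools by different joints. Whether the few UMIs in BF10 came from its own cells or from another library was not tested.

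The leading BF10 chain was more abundant, as a share, in αCSF1R. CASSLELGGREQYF had 358 UMIs in BF10, 0.204% of TRBC (0.184 to 0.227), and 339 in αCSF1R, 1.03% (0.927 to 1.15). It was also the leading TRBC CDR3 of IL-10-Fc with 1447 UMIs (1.11%), and had 2 UMIs in control IgG. BF10 listed it with 8 nucleotide sequences and αCSF1R with 6, and no sequence was in both. In αCSF1R 1 sequence held 334 of the 339 UMIs, and each of the others had 1 UMI. Whether sequences with so few UMIs arose in amplification or reading was not tested. The leading versions shared the same V and J bases and differed at the joint:
BF10, 290 UMIs: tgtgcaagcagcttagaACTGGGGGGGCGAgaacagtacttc
αCSF1R, 334 UMIs: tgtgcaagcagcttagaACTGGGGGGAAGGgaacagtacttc

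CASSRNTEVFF, the third in BF10, had its lowest share of the 4 tumor libraries in BF10. It had 254 UMIs in BF10 (0.145%), 660 in αCSF1R (2.01%), 466 in IL-10-Fc (0.358%) and 5732 in control IgG (5.51%), and was listed in all 12 libraries of the series. Its leading BF10 version, shown above, contains no base outside the germline Trbv17 and Trbj1-1 genes and had 199 UMIs in BF10 and 233 in αCSF1R. The leading αCSF1R version, with 265 UMIs, was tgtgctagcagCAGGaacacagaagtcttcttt and was not listed in BF10. Of the other BF10 leaders, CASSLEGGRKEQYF (296 UMIs, 0.169%) and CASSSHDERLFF (129 UMIs, 0.0737%) were listed in no other tumor library. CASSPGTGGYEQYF had 191 UMIs in BF10, spread over 36 nucleotide sequences, and 14 UMIs in αCSF1R from 1 sequence.

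Groups of CDR3s that differed by 1 residue were looked for among those at 0.1% of UMIs or more. There were 75 such TRBC CDR3s in αCSF1R, with 8 pairs that differed by 1 residue, and 4 in BF10, with no pair. In TRAC there were 85 in αCSF1R, with 14 pairs, and 15 in BF10, with 3 pairs. Fewer CDR3s allow fewer pairs, so the libraries cannot be ranked by these numbers. The most abundant TRBC group, picked after its values were seen, differed at residue 5 and was built from Trbv16 and Trbj2-5:
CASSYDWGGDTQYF, 1508 UMIs in αCSF1R: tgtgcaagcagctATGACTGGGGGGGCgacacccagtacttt
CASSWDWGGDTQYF, 966 UMIs in αCSF1R: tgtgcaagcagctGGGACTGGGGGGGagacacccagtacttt
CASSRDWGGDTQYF, 62 UMIs in αCSF1R: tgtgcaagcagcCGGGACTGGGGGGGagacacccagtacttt
CDR3s of this form, whatever their V gene, made up 2542 UMIs in αCSF1R (7.75%), 29 in BF10 (0.0166%), 38 in IL-10-Fc (0.0292%) and none in control IgG. In BF10, 19 of the 29 UMIs were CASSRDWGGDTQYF, with the same leading sequence as in αCSF1R, and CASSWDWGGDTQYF was not listed. The most abundant member in IL-10-Fc, with 21 UMIs, had a leading version from Trbv14. Of the αCSF1R sequences shown, the first differed from the second by 3 bases and from the third by 4, and the second differed from the third by 1. Whether that 1-base step arose in amplification or reading was not tested.

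V gene usage by UMIs differed between the libraries at many genes. Of 20 TRBV genes with at least 0.5% of UMIs in either library, 12 (60.0%) differed by 2-fold or more, 9 higher in BF10 and 3 higher in αCSF1R. Trbv29 (GRCm38 chr6:41271394-41271881) was the most used in BF10 at 14.5% of TRBC UMIs (14.3 to 14.6), against 5.01% (4.78 to 5.26) in αCSF1R. The 4 spleen libraries lay between 9.39% and 14.2% for it, IL-10-Fc tumors at 13.2% and control IgG tumors at 5.91%. BF10 tumors thus lay just above the spleen range, and αCSF1R and control IgG tumors below it.

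Trbv16 (chr6:41151740-41152230) and Trbv19 (chr6:41178375-41179048) were the most used genes in αCSF1R. Trbv16 made up 11.2% of UMIs in BF10 and 19.5% in αCSF1R, and Trbv19 10.2% and 18.2%. A single CDR3 supplied 23.5% of the αCSF1R UMIs of Trbv16 and 21.98% of those of Trbv19. Trbv2 (chr6:41047340-41047995) had the largest fold of the 20 genes, 1.25% in BF10 against 6.84% in αCSF1R (5.48-fold), and 37.9% of its αCSF1R UMIs belonged to 1 CDR3. Trbv5 was at 2.43% in BF10 and 6.63% in αCSF1R, and reached 14.01% in control IgG.

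The other 5 of the 10 TRBV genes with the widest differences were all higher in BF10. Trbv12-1 was at 5.48% in BF10 and 1.961% in αCSF1R, Trbv13-3 at 4.83% and 1.59%, and Trbv14 at 4.56% and 1.56%. Trbv12-2 was at 5.41% and 2.51%, and Trbv1 at 4.97% and 2.19%. The BF10 share of each lay within the spleen range or less than 1 percentage point from it.

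**Figure D2:**
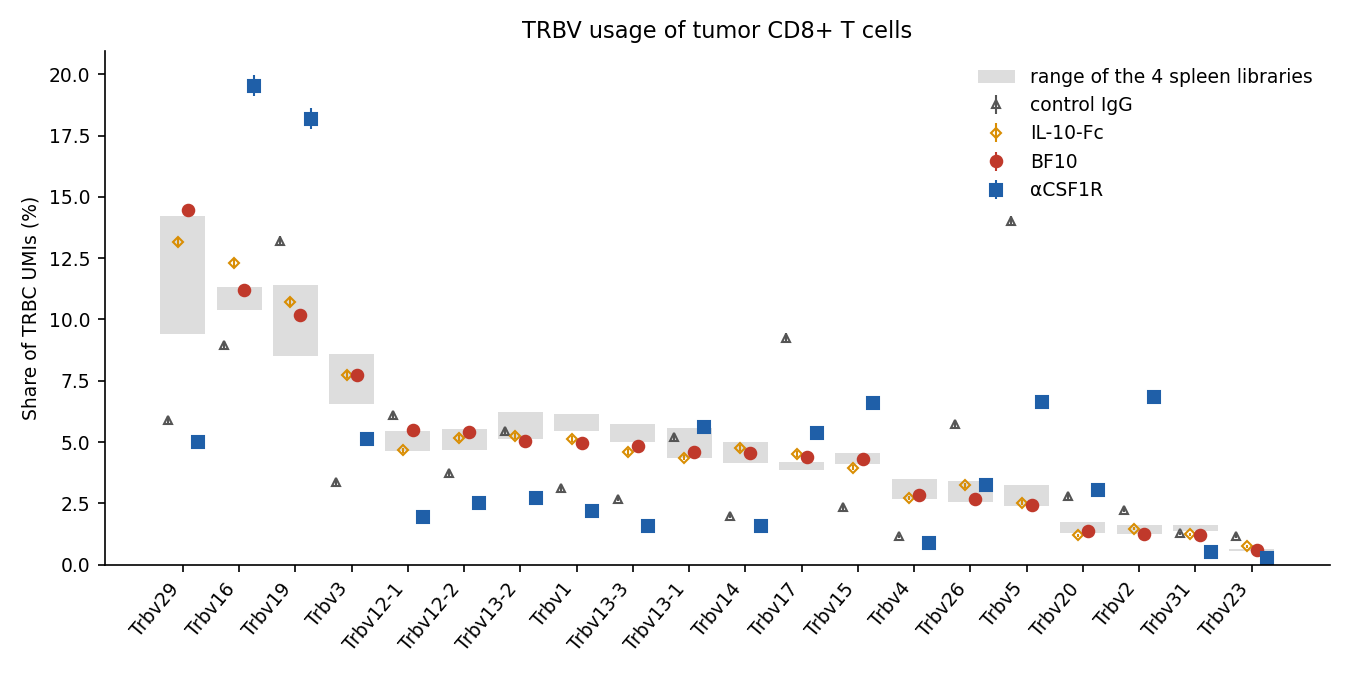
Share of TRBC UMIs (y axis, %) for each TRBV gene (x axis, ordered by its share in BF10) in the 4 tumor libraries, with 95% exact binomial bars for counting error; grey bars span the 4 spleen libraries. BF10 and IL-10-Fc points lie in or near the grey bars, while αCSF1R stands above them at Trbv16 (19.5%), Trbv19 (18.2%) and Trbv2 (6.84%) and below at Trbv29 (5.01%).

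Each V gene can be counted by its CDR3s, with every CDR3 counted once whatever its UMIs. In this count no TRBV gene differed by 2-fold. Trbv29 then held 13.4% of BF10 CDR3s and 9.48% of αCSF1R CDR3s, Trbv16 11.5% and 14.03%, and Trbv19 8.50% and 9.78%. The summed difference of the TRBV profiles, on a scale from 0 (same shares) to 1 (no gene in common), was 0.329 by UMIs and 0.0971 with each CDR3 counted once. Left without the 10 leading CDR3s of each library, it was 0.241, and 5 TRBV genes differed by 2-fold or more. BF10 was 0.0370 from the mean of the spleen libraries and 0.0349 from IL-10-Fc, and αCSF1R was 0.326 from the spleen mean and 0.273 from control IgG. Pairs of spleen libraries lay 0.0321 to 0.0904 apart, so the UMI profiles of the 2 tumor libraries differed by more than any pair of spleen libraries did.

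TRAV genes were grouped into families, since near-identical duplicates left 27.2% of BF10 and 20.7% of αCSF1R TRAC UMIs between several genes. Of 17 families, 6 (35.3%) differed by 2-fold or more, 4 higher in BF10 and 2 in αCSF1R. Trav7 made up 13.3% of TRAC UMIs in BF10 and 18.7% in αCSF1R, Trav9 7.35% and 12.2%, and Trav10 4.08% and 6.44%. Trav8 (6.78% and 2.71%), Trav3 (6.67% and 3.20%), Trav6 (10.2% and 6.94%) and Trav14 (14.9% and 12.5%) were higher in BF10. Trav15 was at 0.807% in BF10 and 4.24% in αCSF1R, where 1 CDR3 supplied 88.8% of it.

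When the 10 leading CDR3s of each library were left out, Trav15 was at 0.824% in BF10 and 0.721% in αCSF1R, and its order turned. Trav7 was then at 13.3% and 13.5%, and Trav9 at 7.48% and 8.92%. The summed difference of the TRAV profiles was 0.198 by UMIs, 0.0724 without these CDR3s and 0.0677 with each CDR3 counted once.

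J segments were compared in the same way. Of 12 TRBJ segments, Trbj2-2 (chr6:41542957-41543007) alone (8.33%) differed by 2-fold or more, with 5.21% of UMIs in BF10 and 1.77% in αCSF1R. Trbj1-4 was just under that limit at 5.90% and 2.98% (1.98-fold), and Trbj2-7 (21.4% and 18.02%), Trbj2-4 (9.47% and 6.73%), Trbj1-5 (2.67% and 1.63%) and Trbj2-3 (9.13% and 8.53%) were also higher in BF10. Trbj1-1 (8.74% and 12.8%), Trbj1-2 (5.99% and 8.82%), Trbj1-3 (4.25% and 6.98%), Trbj2-1 (14.01% and 16.7%) and Trbj2-5 (10.8% and 12.6%) were higher in αCSF1R, and Trbj1-6 was at 2.43% and 2.44%. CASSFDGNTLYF alone supplied 71.8% of the αCSF1R UMIs of Trbj1-3. Segments of the upstream Trbj1 cluster together made up 30.0% of UMIs in BF10 and 35.7% in αCSF1R. The summed difference of the TRBJ profiles was 0.141 by UMIs, 0.130 without the 10 leading CDR3s of each library and 0.0603 with each CDR3 counted once.

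Among 39 TRAJ segments, 12 (30.8%) differed by 2-fold or more, 9 higher in BF10 and 3 in αCSF1R. Traj33 (chr14:54185358-54185414) was at 3.14% in BF10 and 14.3% in αCSF1R, a 4.57-fold difference, and 1 CDR3 supplied 44.7% of its αCSF1R UMIs. Traj30 was at 6.87% and 13.4%, Traj48 at 2.41% and 6.60%, and Traj6 at 1.44% and 4.02%. Traj9 (3.70% and 1.62%) and Traj12 (4.00% and 2.05%) were higher in BF10. Along the Jα locus, segments 1 to 20 made up 24.4% and 17.7%, segments 21 to 40 made up 56.3% and 63.9%, and segments 41 to 61, which lie nearest the V genes, made up 19.3% and 18.4%. The TRAJ profiles differed by 0.269 by UMIs, 0.155 without the 10 leading CDR3s of each library and 0.103 with each CDR3 counted once.

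**Figure D3:**
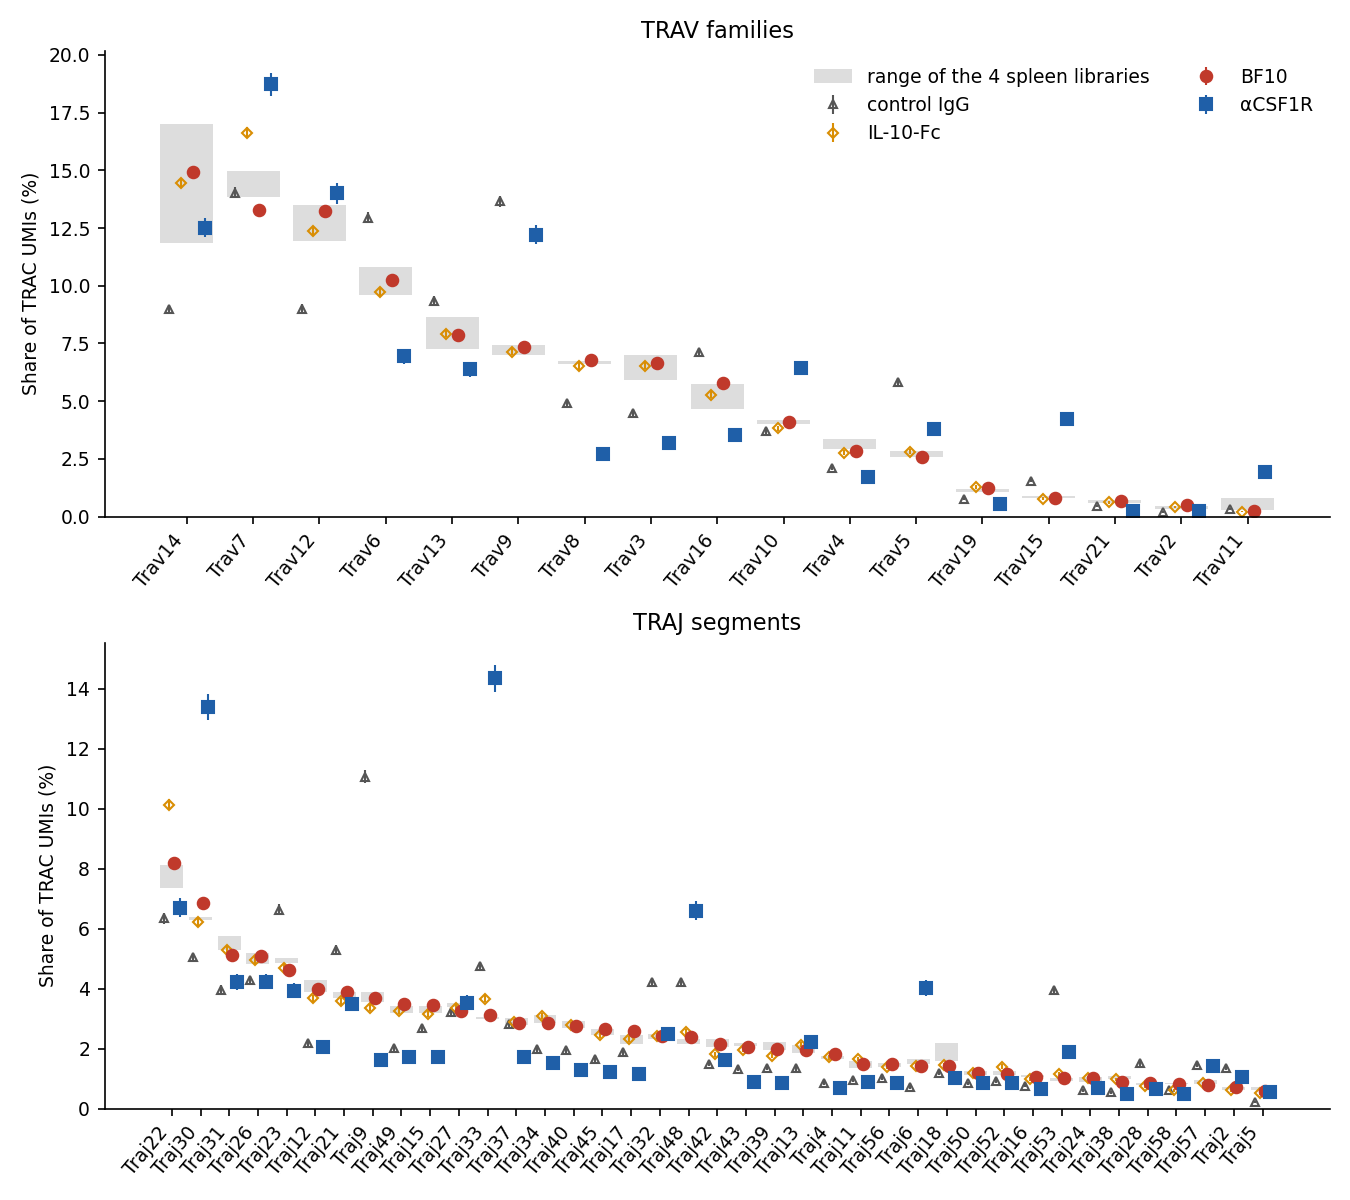
Share of TRAC UMIs (y axes, %) by TRAV family (top) and TRAJ segment (bottom), ordered by the BF10 share, in the 4 tumor libraries with 95% exact binomial bars for counting error; grey bars span the 4 spleen libraries. The αCSF1R points stand far above the spleen range at Traj33 (14.3%) and Traj30 (13.4%), where BF10 stands at 3.14% and 6.87%.

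The α chains behind these J segments are shown because 4 of the 5 leading αCSF1R CDR3s used Traj33 or Traj30:
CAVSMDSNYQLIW (Trav9n-3, Traj33): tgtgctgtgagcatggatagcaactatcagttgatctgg
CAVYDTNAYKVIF (Trav7n-6, Traj30): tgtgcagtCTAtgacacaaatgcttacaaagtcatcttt
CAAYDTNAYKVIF (Trav10, Traj30): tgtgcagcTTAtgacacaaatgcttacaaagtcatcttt
15-residue chain (Trav15n-2, Traj48): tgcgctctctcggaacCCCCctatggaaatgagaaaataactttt
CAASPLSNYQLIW (Trav7d-2, Traj33): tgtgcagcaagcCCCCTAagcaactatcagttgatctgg

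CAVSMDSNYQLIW had 1515 UMIs in αCSF1R, 6.41% of TRAC (6.10 to 6.72), and 38 in BF10 (0.0323%), where its leading version used Trav3-3. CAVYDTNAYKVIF had 1419 UMIs (6.0%) in αCSF1R and 3 in BF10. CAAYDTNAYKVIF, 1 residue away and also joined to Traj30, had 974 (4.12%) and 15. The 15-residue chain (891 UMIs, 3.77%) and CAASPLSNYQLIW (868 UMIs, 3.67%) were not listed in BF10, which allows each a share there of up to 0.00255%. Libraries of mixed cells do not say which α chain belonged to which β chain.

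The 5 leading α chains of BF10 were all present in αCSF1R. Of the 10 leading ones 8 were listed there, against 2.94% of all BF10 TRAC CDR3s. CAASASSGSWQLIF, joined to Traj22, had 750 UMIs in BF10 (0.637%), 67 in αCSF1R (0.283%), 709 in IL-10-Fc (0.717%) and 311 in control IgG (0.389%). Its leading sequence was the same in BF10 and αCSF1R, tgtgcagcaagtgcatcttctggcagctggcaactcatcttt, with no base outside the germline genes. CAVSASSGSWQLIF (262 and 14 UMIs in BF10 and αCSF1R), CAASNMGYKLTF (246 and 28), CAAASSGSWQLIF (237 and 8) and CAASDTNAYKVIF (218 and 22) followed, and all 5 were listed in all 12 libraries. This held for some αCSF1R leaders too: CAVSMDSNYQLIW, whose leading αCSF1R version has no base outside germline, and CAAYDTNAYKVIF were listed in all 12, and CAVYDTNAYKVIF in 11. Of the shared α chains with the highest smaller share, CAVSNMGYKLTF (123 and 54 UMIs) had a higher share in αCSF1R, 0.228% (0.172 to 0.298) against 0.105% (0.0869 to 0.125). A 13-residue Trav14 with Traj13 chain (116 and 29 UMIs) was at 0.123% (0.0821 to 0.176) in αCSF1R and 0.0986% (0.0815 to 0.118) in BF10, intervals that overlap.

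CDR3 length and charge were compared over UMIs and with each CDR3 counted once. The mean TRBC CDR3 was 13.9 residues long in BF10 and 13.5 in αCSF1R, a difference of 0.339 residues, counting the conserved cysteine and phenylalanine. In control IgG and IL-10-Fc tumors the means were 13.6 and 13.9 residues. CDR3s of 9 residues made up 0.130% of UMIs in BF10 and 2.76% in αCSF1R, and those of 15 residues 21.03% and 14.2%. Without the 10 leading CDR3s of each library the order turned, at 13.88 residues in BF10 and 14.01 in αCSF1R, and with each CDR3 counted once the means were 14.05 and 13.83. Mean TRAC lengths were both 13.6 residues, but CDR3s of 13 residues made up 24.5% of UMIs in BF10 and 39.5% in αCSF1R.

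**Figure D4:**
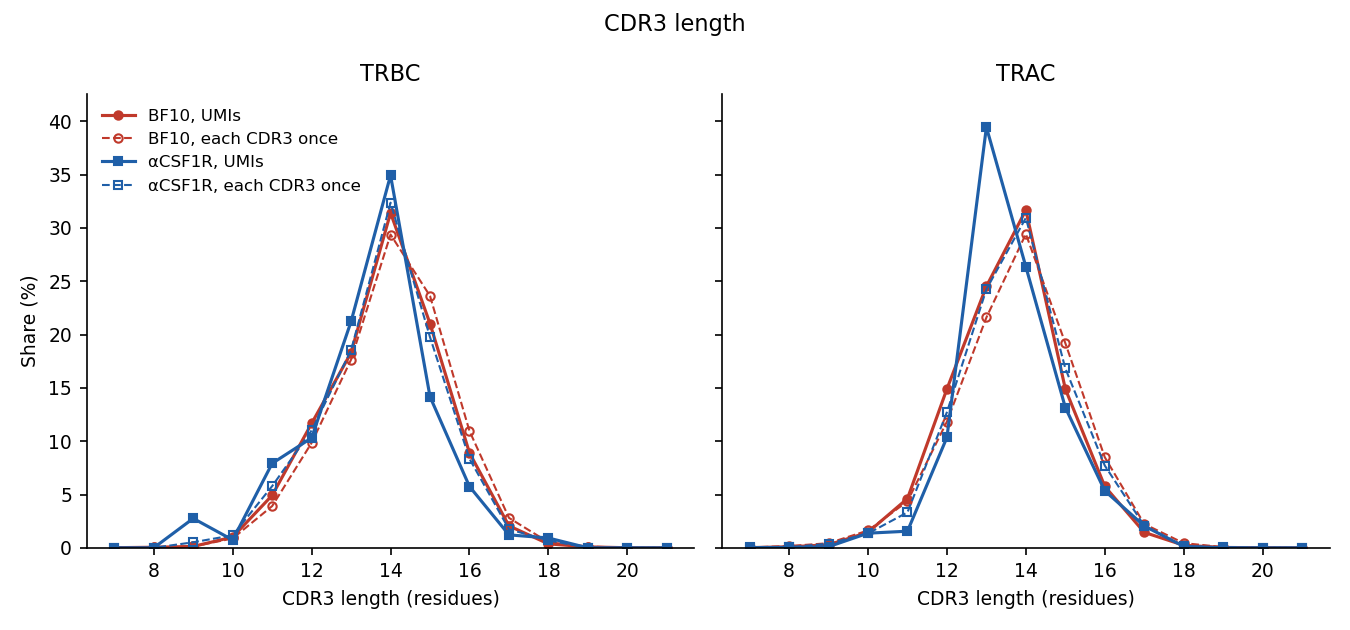
Share of UMIs (filled points, solid lines) and of CDR3s counted once (open points, dashed lines) by CDR3 length in residues (x axis) in the BF10 and αCSF1R tumor libraries, for TRBC (left) and TRAC (right). The αCSF1R UMI line stands apart at 13 residues in TRAC (39.5% against 24.5% in BF10) and at 9 residues in TRBC (2.76% against 0.130%), and the dashed lines of the 2 libraries lie closer.

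β-chain CDR3s of αCSF1R, and to a smaller degree those of control IgG, carried more negative charge by UMIs than those of BF10. The mean net charge of the central residues (lysine and arginine minus aspartate and glutamate, without the first 3 and last 3 residues) was -0.739 in BF10 and -1.01 in αCSF1R over TRBC UMIs. CDR3s with a negative charge made up 61.7% and 68.5% of UMIs, and those with a positive charge 9.07% and 4.58%. Mean hydropathy on the Kyte-Doolittle scale, on which lower values are more hydrophilic, was -1.21 and -1.36. In control IgG and IL-10-Fc tumors the mean TRBC charge was -0.877 and -0.749, and the mean hydropathy -1.42 and -1.21. In TRAC the mean charge was 0.375 in BF10 and 0.124 in αCSF1R, and positive CDR3s made up 47.3% and 31.4%. Control IgG and IL-10-Fc tumors had mean TRAC charges of 0.200 and 0.358. With each CDR3 counted once the mean charges were -0.736 and -0.756 for TRBC, and 0.414 and 0.362 for TRAC, and the mean TRBC hydropathy was -1.22 in both libraries.

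Shared CDR3s were counted at equal UMI totals. With the BF10 library drawn down to 32784 TRBC UMIs, 406 CDR3 amino acid sequences (95% interval for the draw, 385 to 427) were expected in both, which is 17.7% of the αCSF1R CDR3s and 1.66% of the BF10 CDR3s. For TRAC at 23650 UMIs, 697 were expected (674 to 720), 33.6% of the αCSF1R CDR3s and 4.91% of those of BF10. When the same nucleotide sequence was required, the numbers were 68.4 for TRBC and 347 for TRAC. At the same totals BF10 shared 3078 TRBC CDR3s with IL-10-Fc and 1093 with control IgG, and αCSF1R shared 385 with IL-10-Fc and 198 with control IgG. Numbers of shared CDR3s rise with the number of CDR3s a library holds, so these pairs are given side by side and not ranked by likeness.

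With all UMIs, 696 TRBC CDR3s were in both libraries. They were 0.987% of the CDR3s and 3.59% of the UMIs of BF10, and 30.3% of the CDR3s and 35.4% of the UMIs of αCSF1R. In TRAC 1012 were shared, with 2.94% of CDR3s and 11.9% of UMIs in BF10, and 48.8% and 62.0% in αCSF1R. A share was higher in αCSF1R for 625 of the 696 TRBC CDR3s and for 829 of the 1012 TRAC CDR3s. Since 1 UMI is a larger share of the shallower library, this count is set in part by depth. Only 46 of the shared TRBC CDR3s and 94 of the TRAC CDR3s had 10 UMIs or more in both libraries.

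**Figure D5:**
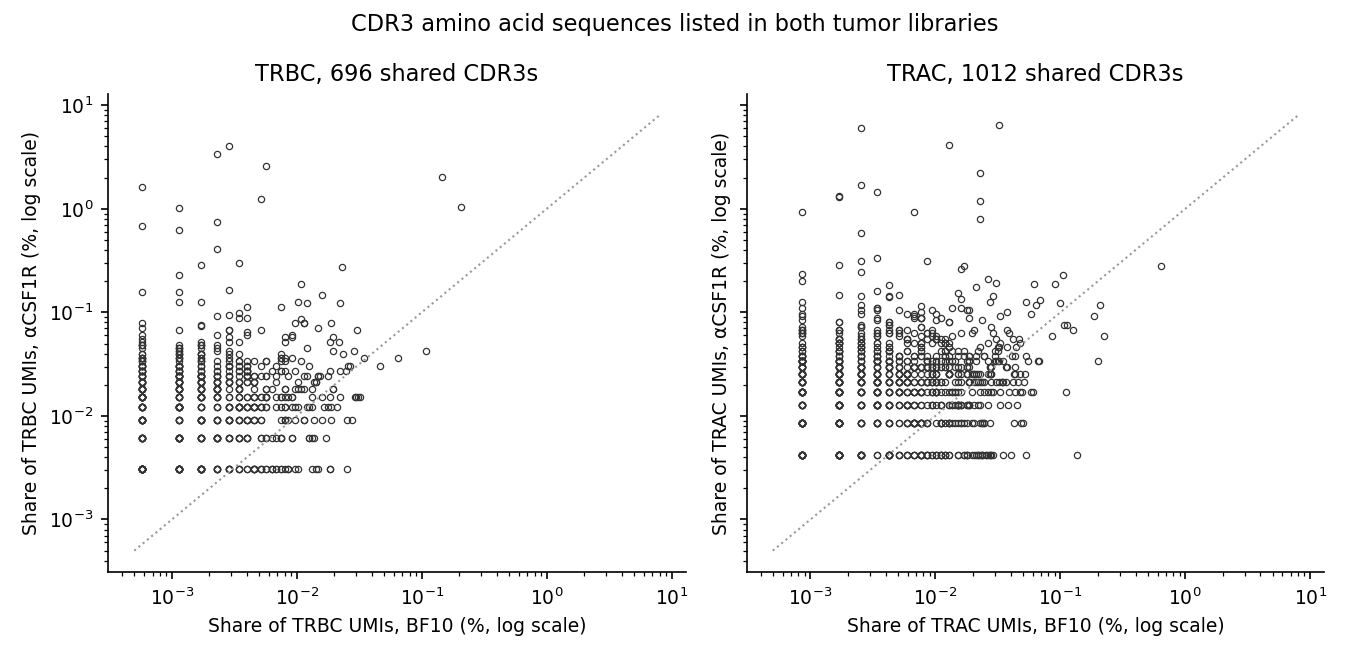
Share of UMIs in αCSF1R (y axis, %, log scale) against BF10 (x axis, %, log scale) for each CDR3 amino acid sequence listed in both tumor libraries, for TRBC (left, 696) and TRAC (right, 1012); on the dotted line both shares are equal. Most points lie above the line (625 in TRBC, 829 in TRAC), and the lowest lines of points are CDR3s with a single UMI. The αCSF1R leaders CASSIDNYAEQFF (TRBC) and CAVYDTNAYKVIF (TRAC) lie at the top left.

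Shared and private CDR3s differed in make-up. In BF10, shared TRBC CDR3s were 13.4 residues long on average and private ones 14.1, with 8.19 and 10.7 bases outside germline V and J. In αCSF1R the lengths were 13.4 and 14.02 residues and the bases 8.21 and 12.1. Median bases were 8 and 10 in BF10 and 8 and 11 in αCSF1R. Since matching stops at the first mismatch, 1 changed base in the V stretch raises this count by several bases. A shared TRBC CDR3 was encoded by 3.48 nucleotide sequences on average in BF10, and a private one by 1.24. In αCSF1R these were 1.14 and 1.06. Shared TRBC CDR3s also had more UMIs, on average 9.03 against 2.42 in BF10 and 16.7 against 13.2 in αCSF1R. The part of UMI number in these contrasts, and in the listing in other libraries given below, was not tested. In TRAC, 18.9% of the shared CDR3s of BF10 had a leading version with no base outside germline, against 5.08% of private ones, and in αCSF1R the shares were 17.2% and 2.48%. For some TRAV genes, such as Trav14-2 and Trav3-3, only 9 germline bases of the CDR3 could be matched, against 13 for Trav14-1. The TRAC shares thus depend in part on which V gene was called.

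Shared CDR3s were also widespread in the other libraries. Of the 696 TRBC CDR3s, 97.1% were listed in at least 1 of the 8 spleen and tumor-draining lymph node (tdLN) libraries and 40.1% in all 8. Private CDR3s were listed in at least 1 in 49.9% of cases for BF10 and 39.8% for αCSF1R, and in all 8 in 3.71% and 0.811%. The same nucleotide sequence occurred in both tumor libraries for 155 of the 696 shared TRBC CDR3s (22.3%) and for 549 of the 1012 TRAC CDR3s (54.2%).

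The 100 leading CDR3s of each library were then looked up in the other. In TRBC, 35 of the 100 leading BF10 CDR3s were listed in αCSF1R, against 0.987% of all BF10 TRBC CDR3s. Of the 100 leading αCSF1R CDR3s, 40 were listed in BF10, against 30.3% of all αCSF1R TRBC CDR3s. In the tdLN library of their own treatment, 97 of the BF10 leaders and 74 of the αCSF1R leaders were present, against 77 and 42 in the tdLN library of the other treatment. The shares of all tumor TRBC CDR3s listed in these tdLN libraries were not counted, so these numbers do not set the leaders apart from the rest. The 10 leading αCSF1R TRBC CDR3s, 34.0% of that library, together made up 0.156% of BF10 UMIs, and the 10 leading BF10 CDR3s, 1.03% of that library, made up 3.13% of αCSF1R UMIs. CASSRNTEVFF was in both lists, at 0.145% of BF10 and 2.01% of αCSF1R TRBC UMIs.

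Chains of γδ T cells were a larger part of the αCSF1R library. TRGC and TRDC together made up 2653 of 295394 UMIs in BF10 (0.898%) and 5531 of 61965 in αCSF1R (8.93%), with 4.27% in control IgG and 0.873% in IL-10-Fc. Trdv4 was used by 8.11% of BF10 TRDC UMIs and by 83.0% of αCSF1R TRDC UMIs, and Trgv5 by 11.2% and 27.3% of TRGC UMIs. The leading chain of each was the same in both libraries:
Trgv5 with Trgj1, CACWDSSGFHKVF: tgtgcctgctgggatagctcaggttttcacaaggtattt
Trdv4 with Trdj2, 17 residues: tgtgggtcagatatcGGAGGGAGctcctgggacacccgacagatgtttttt
These are the invariant chains known from dendritic epidermal T cells, γδ T cells of mouse skin. The γ chain had 107 UMIs in BF10 (9.11% of TRGC) and 1158 in αCSF1R (26.1%), and the δ chain 87 (5.88% of TRDC) and 701 (63.8%). Shares within TRBC and TRAC, as given above, do not count these chains, and the part that other T cells had in the differences of the α and β chains was not tested. Chains of other unconventional T cells were rare: the 15-residue Trav11 with Traj18 chain of invariant NKT cells had 8 UMIs in BF10 (0.00680% of TRAC) and 5 in αCSF1R (0.0211%), and Trav1 with Traj33, the pair used by MAIT cells, had 14 and 0 UMIs (up to 0.0127%).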

How the data were processed

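CD8+ T-cell RNA was made into libraries with a QIAseq mouse TCR kit that tags cDNA molecules with UMIs. Per the labels, reads were processed in Qiagen's analysis portal with mm10 as genome build. The authors deposited, for each V region, J region and CDR3, counts of UMIs with at least 3 or 7 reads; these UMI counts are not normalised. Here the counts at 3 reads or more were summed by chain and CDR3 amino acid sequence. Groups came from the labels. Shares have exact binomial (Clopper-Pearson) intervals. Numbers at equal UMIs are exact expectations of drawing without replacement, with normal intervals from an upper bound of the variance. V and J usage was called at 2-fold where either library had at least 0.5%. Germline bases were taken from the GRCm38 annotation and matched from each end of the CDR3 up to the first mismatch. Named items were the 10 TRBV genes, 8 TRAV families and 6 TRAJ segments with the widest difference, all TRBJ segments, the 5 leading CDR3s per library and α or β chain, the 5 shared CDR3s per chain with the highest smaller share, and the leading γ and δ CDR3s. CDR3s that differ by 1 residue were picked after their values were seen. The comparison and the lists were chosen with earlier results of these data known. Alternatives were the 7-read limit, at least 2 UMIs, CDR3 with V and J, nucleotide sequences, all UMIs, each CDR3 once, leaving out the 10 leading CDR3s, and merging nucleotide sequences 1 base from a 10-fold more abundant one. Scripts used Python 3.11.15 with scipy 1.17.1, pandas 2.3.3, numpy 2.4.6 and matplotlib 3.10.9, and were tested on simulated data.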

Additional observations from a re-analysis of the deposited data

Results flagged for a closer look

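The share of γδ chains (TRGC and TRDC) moved one way in tumors and the other way in both other tissues. In tumors it was 0.898% of UMIs in BF10 and 8.93% in αCSF1R, a difference of -8.03 percentage points. In spleens it was 2.30% and 1.79%, and in tdLNs 6.34% and 4.96%, so BF10 was the higher there. This was 1 of 19 items compared across the 3 tissues, each library is 1 pool, and the difference between tissues was not tested. Titles of the tdLN libraries do not name CD8, unlike those of tumor and spleen. In BF10 and αCSF1R tdLNs, 8.26% and 10.4% of TRBC UMIs had 7 reads or more, against 40.9% in control IgG and 35.3% in IL-10-Fc tdLNs. TRAC made up 20.1% and 22.6% of their UMIs, against 42.6% and 40.2%. The part of these differences in the γδ shares was not tested.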

How the results depend on the processing

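Counts (shared CDR3s, genes past 2-fold) were taken as moved when over 1.5 times from the reported value, and ratios, distances and length differences when they left its counting interval. By these rules 25 of 54 alternative values stayed, 27 moved and 2 changed sign, 1 of which (TRAC length, each CDR3 once) lay within its own counting error of 0 and of the reported value. The BF10 to αCSF1R ratio of TRBC CDR3 numbers (10.7) was 9.35 with at least 7 reads per UMI, 12.0 with at least 2 UMIs, 11.5 with V and J, 11.1 by nucleotide sequence, 30.7 with all UMIs and 12.1 after merging near sequences; that of TRAC (6.85) was 6.22, 7.41, 7.99, 7.56, 16.6 and 7.48. Shared TRBC CDR3s (406) were 162 with V and J, 68.4 by nucleotide sequence and 696 with all UMIs, and TRAC (697) 269 with V and J and 347 by nucleotide sequence. With each CDR3 counted once and without the 10 leading CDR3s, in that order, the TRBV distance (0.329) was 0.0971 and 0.241, the TRAV distance (0.198) 0.0677 and 0.0724, TRBV genes past 2-fold (12) 0 and 5, TRAV families past 2-fold (6) 1 and 1, the TRBC length difference (0.339 residues) 0.215 and -0.129, and the TRAC length difference (-0.0395) 0.0248 and -0.132. The cause was not tested.

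No paired analysis was possible because each group is 1 library of pooled mice, and leaving out a library leaves no comparison. Merging removed 15.2% of αCSF1R and 0.273% of BF10 TRBC nucleotide sequences. The smaller αCSF1R library gives no account of chains below 0.00915% of TRBC. Its lower total and the treatment cannot be told apart.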

Other observations

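The δ genes Trdv2-2, Trdv1 and Trdv5 had smaller shares in the αCSF1R library, where Trdv4 alone took 83.0% of TRDC UMIs. Trdv2-2 made up 32.5% of TRDC UMIs in BF10 and 4.28% in αCSF1R, Trdv1 8.72% and 1.09%, and Trdv5 6.09% and 0.182%. In the spleens Trdv2-2 lay between 22.6% and 32.4% and Trdv4 between 0.326% and 3.76%. Trgv2 was the most used γ gene in both, at 47.4% of TRGC UMIs in BF10 and 63.6% in αCSF1R, and Trgv1 was at 7.67% and 0.248%. At an equal total of 1098 TRDC UMIs, 541 CDR3s were expected in BF10 against 55 in αCSF1R, and at 1174 TRGC UMIs 239 against 76.6; these numbers include the epidermal chains. In tdLNs Trdv4 made up 42.3% of TRDC UMIs in the BF10 and 52.8% in the αCSF1R library, so its share there was high under both treatments. These genes were picked after their values were seen, and no test was possible with 1 library per group.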
